A study of Homo sapiens with 12 samples.

Results

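Whether the kinase inhibitor sorafenib alters what perifosine does to gene expression in the cell line HD-MyZ was measured as an interaction. This is the perifosine effect in cells that received sorafenib (combination minus sorafenib) minus the perifosine effect in cells that did not (perifosine minus control). Every named gene was tested, and all 12 of the 12 arrays of the series enter the contrast. They fall into 4 groups of 3 arrays of the human cell line HD-MyZ, an established line derived from Hodgkin lymphoma. The combination arrays come from cells given 10 µM perifosine and 5 µM sorafenib for 24 hours, the sorafenib arrays from cells given 5 µM sorafenib for 24 hours, the perifosine arrays from cells given 10 µM perifosine for 24 hours, and the control arrays from cells labelled as controls at 24 hours. Nothing in the labels says whether the arrays A, B and C of a group come from separate cultures, so the p-values measure the spread between these arrays, which may be technical. No vehicle is named for the control cells.

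Perifosine is an alkylphospholipid that lodges in cell membranes and hinders the recruitment of the kinase AKT to them. Sorafenib is an inhibitor of several kinases, among them the RAF kinases that stand upstream of MEK and ERK and the receptors for vascular endothelial growth factors. AKT signalling promotes growth and survival, and ERK signalling drives immediate early transcription factors of the AP-1 family, which bind the promoters of many metalloproteinase and cytokine genes. A gene that answers to both drugs additively on a log2 scale has an interaction of 0. A negative interaction means that perifosine raised the gene less, or lowered it more, in the presence of sorafenib.

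The values are deposited array intensities in linear units, taken to log2 and tested in limma over 18852 genes, with 1 probe per gene. The intensities ran between 170 and 71906, and the commonest value on the arrays was 275, so that readings near 300 lie at the array's background. An interaction combines 4 group means and was less precise than a single drug effect: its median standard error was 0.205 on the log2 scale, against 0.145 for perifosine alone. A gene was called at a Benjamini-Hochberg adjusted p under 0.05 over all genes of a contrast.

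Combination A, sorafenib B and control C stood apart from the other arrays of their groups; each correlated less with its group mates than these did with each other, by a Pearson r of 0.0086, 0.031 and 0.0089. In these 3 arrays the median of the nuclear-encoded oxidative phosphorylation genes lay below that of the group mates by 0.84, 1.19 and 0.68 on the log2 scale, and that of the metallothionein genes by 1.53, 1.62 and 1.39. Results were therefore also computed over the other 9 arrays. Among 16 genes typical of Hodgkin cells, 6 had a mean log2 intensity of at least 9, with FSCN1 at 15.78 and IL13RA1 at 13.37, while TNFRSF8 (CD30) at 8.12, CD40 at 8.08 and CCL22 at 8.15 were close to background. At the same limit, 0 of 9 T-cell markers, 1 of 9 B and plasma cell markers (SDC1), 1 of 10 monocyte and macrophage markers (CD68), 2 of 10 epithelial markers (KRT19 and MUC1) and 6 of 10 fibroblast and stromal markers (COL1A2 at 15.07 the brightest) were present.

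The interaction was called for 3 of 18852 genes (0.0159%), and for all 3 it was negative. They are MMP1, the interstitial collagenase that cleaves fibrillar collagen, MMP10, the stromelysin 2 that degrades proteoglycans and activates other metalloproteinases, and FERMT1, the kindlin 1 that helps to activate integrins. In each of them perifosine raised the gene strongly in cells without sorafenib and left it within the spread of the arrays in cells with sorafenib.

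MMP1 read 313, 328 and 308 in the combination arrays, against 284, 297 and 308 in the sorafenib arrays. It read 1412, 2141 and 1770 in the perifosine arrays, against 327, 380 and 360 in the control arrays. All 3 perifosine arrays thus stood far above every other array, and the combination and sorafenib arrays overlapped close to the background. The perifosine effect was 0.10 on the log2 scale with sorafenib (95% interval -0.20 to 0.39) and 2.30 without it (2.00 to 2.60), which is 1.07-fold and 4.93-fold. The interaction was -2.21 ± 0.19 (SE, n = 3 arrays a group; limma, adjusted p = 0.00218), and -2.21 over the 9 arrays (limma, adjusted p = 0.00345). Since MMP1 lay near background in 3 of the 4 groups, these differences depend on how background is treated; after a normexp background correction they were 0.19 with sorafenib, 2.98 without it and -2.79 for the interaction.

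MMP10 was well above background in all arrays. It read 1063, 904 and 698 in the combination arrays, against 1147, 718 and 666 in the sorafenib arrays. Without sorafenib it read 8626, 8019 and 10699 in the perifosine arrays, against 1398, 1273 and 1155 in the control arrays. The first pair of groups overlapped over nearly the same range, whereas the second was separated by a wide gap. Perifosine changed MMP10 by 0.10 with sorafenib (95% interval -0.37 to 0.56) and by 2.83 without it (2.37 to 3.30), a 7.12-fold rise. The interaction was -2.73 ± 0.30 (SE; limma, adjusted p = 0.0127) in 12 arrays and -2.90 (adjusted p = 0.00345) in 9. The call was lost, at adjusted p between 0.0655 and 0.0707 in limma, when control C, perifosine A, perifosine C or combination B was left out.

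FERMT1 read 3202, 3245 and 3256 in the combination arrays, against 3197, 3561 and 3155 in the sorafenib arrays. In cells without sorafenib it read 7310, 7033 and 8236 with perifosine, against 3026, 3700 and 3319 in controls. The perifosine arrays again stood alone, and the other 9 shared a narrow range. The effect of perifosine was -0.03 with sorafenib (95% interval -0.26 to 0.20) and 1.17 without it (0.94 to 1.40), and the interaction was -1.20 ± 0.15 (SE; limma, adjusted p = 0.0281). Its call was the least firm of the 3: over the 9 arrays the interaction was -1.13 with an adjusted p of 0.0719 in limma, and the adjusted p was 0.222 after normexp background correction. When each array was left out in turn, the call held in 2 of 12 cases, those without control B and without sorafenib B.

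**Figure D1:**
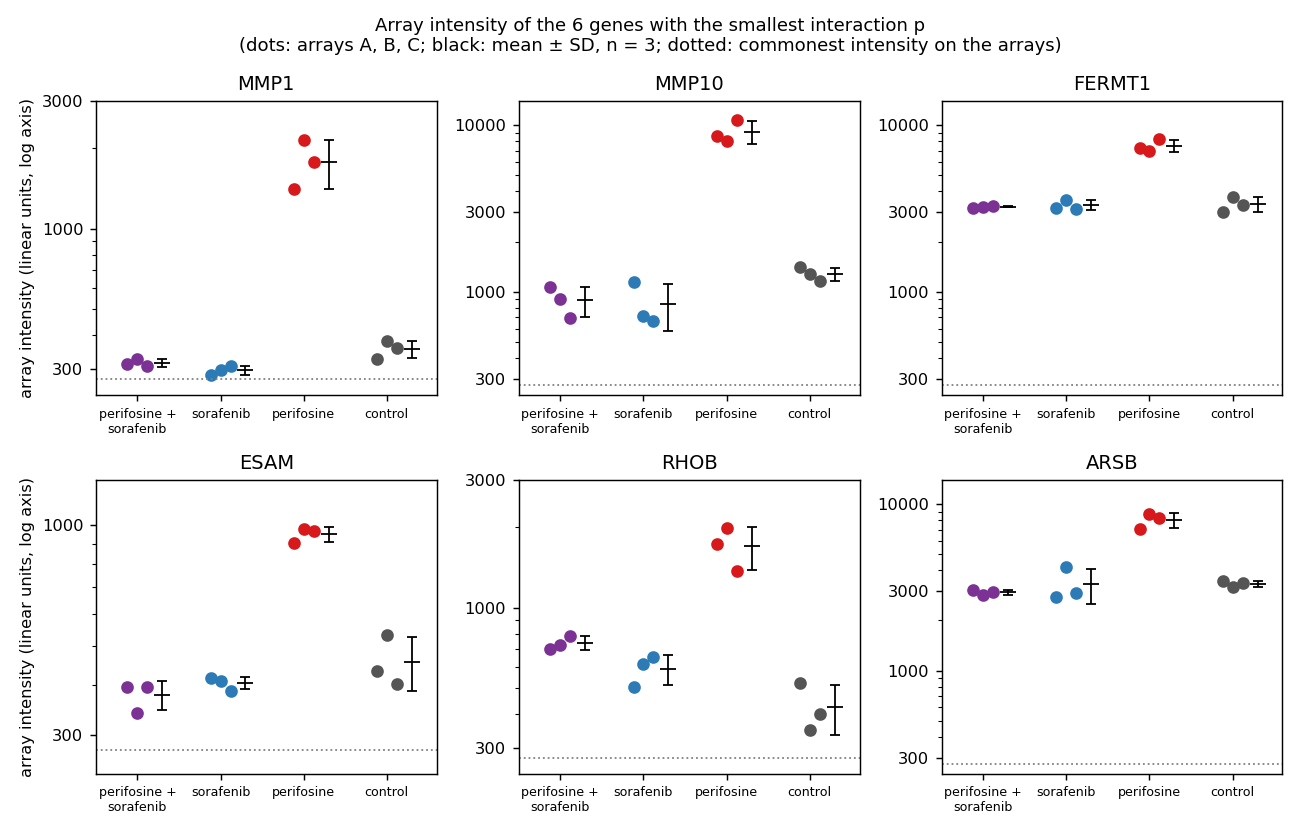
Array intensity (linear units on a log axis) of the 6 genes with the smallest interaction p, for combination, sorafenib, perifosine and control arrays; dots are the arrays A, B and C, black marks the mean ± SD (n = 3), and the dotted line is the commonest intensity, 275. In every panel the 3 perifosine arrays lie above all others, while combination and sorafenib arrays overlap or, for RHOB, lie close together.

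The same numbers can be read from the side of sorafenib. Sorafenib changed MMP1 by -2.47 on the log2 scale in cells that also had perifosine and by -0.26 in cells that did not. For MMP10 the sorafenib effects were -3.37 with perifosine and -0.63 without it, and for FERMT1 -1.22 and -0.02. In the combination, MMP1, MMP10 and FERMT1 therefore stood at or below their level in control cells, at mean intensities of 316 ± 10.3, 888 ± 183 and 3234 ± 28.5, against 356 ± 26.6, 1275 ± 122 and 3348 ± 338 in controls (SD, n = 3).

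The next genes by p-value missed the threshold but had the same shape. ESAM, an adhesion molecule of endothelial junctions, read 396, 341 and 394 in the combination arrays against 415, 408 and 387 with sorafenib, and 905, 980 and 969 with perifosine against 433, 534 and 401 in controls. Its interaction was -1.17 ± 0.17 (SE; limma, adjusted p = 0.0739). Only the perifosine arrays stood apart from the rest.

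RHOB, a small GTPase that is induced by stress and growth factors, came next. It read 703, 728 and 786 in the combination arrays against 507, 617 and 652 with sorafenib, and 1726, 1987 and 1367 with perifosine against 522, 349 and 402 in controls. The arrays did not overlap within either pair, but the step was 1.25-fold with sorafenib and 4-fold without it. On the log2 scale the effect with sorafenib was 0.33 (95% interval -0.05 to 0.70; limma, adjusted p = 0.999). The interaction was -1.67 ± 0.24 (SE; limma, adjusted p = 0.0787).

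ARSB, a lysosomal sulfatase that acts on glycosaminoglycans, read 3038, 2857 and 2951 in the combination arrays against 2754, 4199 and 2921 with sorafenib, and 7097, 8726 and 8288 with perifosine against 3449, 3170 and 3359 in controls. The interaction was -1.40 ± 0.21 (SE; limma, adjusted p = 0.0855). VEGFC, the growth factor for lymphatic vessels, followed with perifosine effects of -0.02 with sorafenib and 1.11 without it and an interaction of -1.13 ± 0.19 (SE; adjusted p = 0.195). Its perifosine arrays, at 11728, 11040 and 14365, were above all control arrays, at 5514, 6102 and 5551.

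The chemokine CCL3 and its near-identical gene copies CCL3L1 and CCL3L3, ligands that attract monocytes and T cells, formed a group whose probes may not tell the copies apart. CCL3L3 read 367, 441 and 722 in the combination arrays against 490, 382 and 549 with sorafenib, and 4679, 5668 and 8951 with perifosine against 1337, 1398 and 1392 in controls. Sorafenib by itself changed these genes by -1.55 for CCL3L3, -1.28 for CCL3 and -0.95 for CCL3L1, and in its presence the perifosine effects were 0.06, 0.20 and 0.23. Without sorafenib they were 2.17, 2.15 and 1.69. The interactions of -2.11, -1.95 and -1.46 had adjusted p-values in limma of 0.274, 0.612 and 0.274, with standard errors of 0.38, 0.46 and 0.27.

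NPPC, the precursor of C-type natriuretic peptide, read 291, 530 and 409 in the combination arrays against 480, 314 and 374 with sorafenib, and 1856, 2441 and 3270 with perifosine against 659, 610 and 661 in controls. Its interaction was -1.88 ± 0.34 (SE; limma, adjusted p = 0.274). CXCL17, a chemokine of mucosal tissues, was the exception among the 10 genes with the smallest p. It read 302, 283 and 291 in the combination arrays against 483, 488 and 442 with sorafenib, and 442, 392 and 400 with perifosine against 330, 294 and 403 in controls. Here the larger effect was the one with sorafenib, -0.69 against 0.28 without it, and the interaction was -0.97 ± 0.17 (SE; limma, adjusted p = 0.248); all its readings were below 500 and near background.

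Over all genes the interaction had a median of 0.00 and ran from -2.73 to 1.70. It passed an unadjusted p of 0.05 in limma for 921 genes (4.89%), a share close to the threshold itself, with 487 positive (2.58%) and 434 negative (2.3%). Large interactions leaned one way: 48 genes lay at -1 or below, that is a response at least 2-fold smaller or more negative with sorafenib, and 7 at 1 or above. The 7 positive ones included KRTAP4-7, THAP4 and GALM. These counts were made over all arrays and not repeated without combination A, sorafenib B and control C, so how far the lean rests on those arrays was not tested. Some large negative interactions shrank without them: that of MT1X went from -1.19 to -0.27 and that of MT1M from -1.15 to -0.44. Others held, among them MMP1 at -2.21 in both fits and MMP10 at -2.73 and -2.9.

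The interaction was also weighed against the perifosine effects that make it up. These compare different arrays, combination with sorafenib and perifosine with control, so they share none of them. In the presence of sorafenib limma called 0 of 18852 genes for perifosine (0%), the smallest adjusted p being 0.597, and 643 genes (3.41%) had an unadjusted p under 0.05. Without sorafenib limma called 56 genes (0.297%), of which 38 rose (0.202%) and 18 fell (0.0955%), and 1348 genes (7.15%) had an unadjusted p under 0.05. By size alone, 1 gene was up and 4 were down at least 2-fold with sorafenib, against 26 up and 10 down without it. Over the 9 arrays the interaction was called for MMP1 and MMP10 alone (2 genes, 0.0106%), and the perifosine calls were 0 with sorafenib (smallest adjusted p 0.0691) and 293 (1.55%) without it, including all 56.

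**Figure D2:**
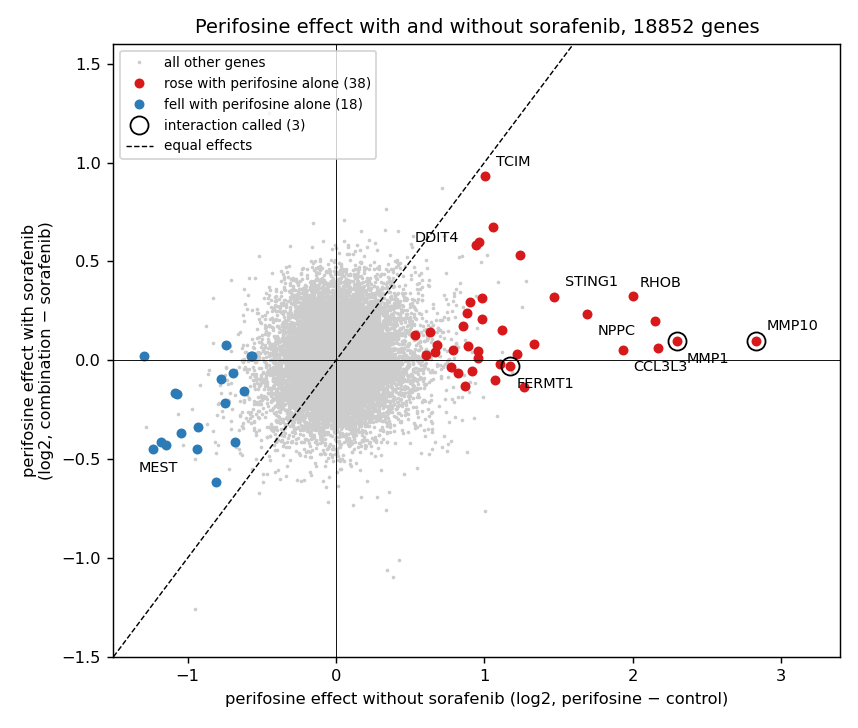
Perifosine effect of each gene with sorafenib (vertical axis, combination minus sorafenib, log2) against its effect without sorafenib (horizontal axis, perifosine minus control, log2); red and blue dots are the 38 genes that rose and the 18 that fell with perifosine alone, rings mark the 3 called interactions, and the dashed line marks equal effects. Most red and blue dots lie near a vertical value of 0, and TCIM lies close to the dashed line.

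The 38 genes that rose with perifosine alone had a median effect of 0.09 with sorafenib (range -0.13 to 0.93), against 0.98 without it (0.53 to 2.83). Of them, 30 had a positive and 8 a negative effect with sorafenib, and in 34 the effect with sorafenib was smaller than 50% of that without it. The 30 of these genes whose sorafenib arrays had a mean log2 intensity of at least 9 also had a median of 0.09 with sorafenib, against 0.95 without it. The 18 genes that fell with perifosine alone had a median effect of -0.19 with sorafenib (range -0.61 to 0.08), against -0.87 without it (-1.29 to -0.57), and 14 were negative and 4 positive with sorafenib. Over the 9 arrays the medians were 0.12 with and 1.02 without sorafenib for the rises, and -0.15 and -0.83 for the falls.

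These 56 genes were picked for their effect without sorafenib, so their effects without it are drawn towards larger values and the difference leans with the choice. The opposite choice was also made, but it held 0 called genes, so it is no measure of the lean in the first choice. The 56 genes with the smallest p for perifosine with sorafenib had a median absolute effect of 0.47 with it and of 0.12 in the same direction without it, and 41 of them kept their direction. The 56 genes called without sorafenib had a median absolute effect of 0.96 without it and of 0.14 in the same direction with it, and 44 kept their direction. A choice made on either side was thus followed by a smaller median on the other side. Across the 56 called genes the 2 effects correlated with a Pearson r of 0.6, as a description over genes measured on the same arrays.

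Some of the genes that rose with perifosine alone had effects of nearer size in both settings. TCIM, a small regulator of the Wnt pathway, read 1698, 1716 and 1432 in the combination arrays against 932, 650 and 996 with sorafenib, and 3592, 4274 and 3918 with perifosine against 1585, 2102 and 2244 in controls. Its steps of 0.93 with sorafenib and 1.0 without it differed by -0.07 ± 0.25 (SE; 95% interval -0.62 to 0.47). Its effects in the 9 arrays were 0.70 with sorafenib and 1.10 without it, a difference of -0.40. Sorafenib alone had lowered the gene by -1.21, so that both steps began from different levels.

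DDIT4, an inhibitor of the kinase complex mTORC1, read 16634, 18654 and 19775 in the combination arrays against 14386, 10763 and 11384 with sorafenib, and 4641, 4862 and 5113 with perifosine against 3044, 2143 and 2379 in controls. The perifosine effects were 0.60 with sorafenib and 0.96 without it, on top of a sorafenib effect of 2.28. The interaction was -0.36 ± 0.21 (SE; limma, adjusted p = 0.993). THBD, the thrombin receptor thrombomodulin, had effects of 0.67 with sorafenib and 1.05 without it, and HEY1, a transcriptional repressor downstream of Notch, had 0.58 and 0.95.

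Of the other genes that rose with perifosine alone, STING1, the adaptor through which cells sense cytosolic DNA, had effects of 0.32 with sorafenib and 1.47 without it. Its interaction was -1.15 ± 0.29 (SE; limma, adjusted p = 0.728), and -1.48 over the 9 arrays. LRFN5, an adhesion molecule of synapses, had 0.08 with sorafenib and 1.34 without it, with an interaction of -1.25 ± 0.26 (SE; adjusted p = 0.395). Further down, the integrin subunit gene ITGB3 had 0.05 and 0.96, the transcriptional coactivator gene WWTR1 (TAZ) -0.05 and 0.92, and the ERK phosphatase gene DUSP6 0.24 and 0.88.

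The 5 largest falls with perifosine alone had positive interactions. KRTAP4-7, a keratin-associated protein of hair, read 296, 350 and 427 in the combination arrays against 367, 321 and 357 with sorafenib, and 388, 454 and 445 with perifosine against 890, 1358 and 952 in controls. Only the control arrays were high, and the interaction was 1.32 ± 0.24 (SE; limma, adjusted p = 0.274). Sorafenib by itself had already brought this gene close to background, by -1.59.

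MEST, an imprinted gene of the hydrolase family, and CPA4, a secreted carboxypeptidase, were raised by sorafenib alone (limma, adjusted p = 0.0395 and 0.00764). CPA4 read 2032, 2158 and 1915 in the combination arrays against 3172, 2696 and 2401 with sorafenib, and 558, 500 and 573 with perifosine against 1466, 1358 and 873 in controls. Perifosine values were below their counterparts in both settings without overlap, by -0.43 with sorafenib and -1.15 without it, and the interaction was 0.72 ± 0.25 (SE; limma, adjusted p = 0.950). MEST had effects of -0.45 with sorafenib and -1.23 without it. APLN, which encodes the peptide hormone apelin, had -0.41 and -1.18, and OSR1, a zinc finger transcription factor, -0.17 and -1.09.

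**Figure D3:**
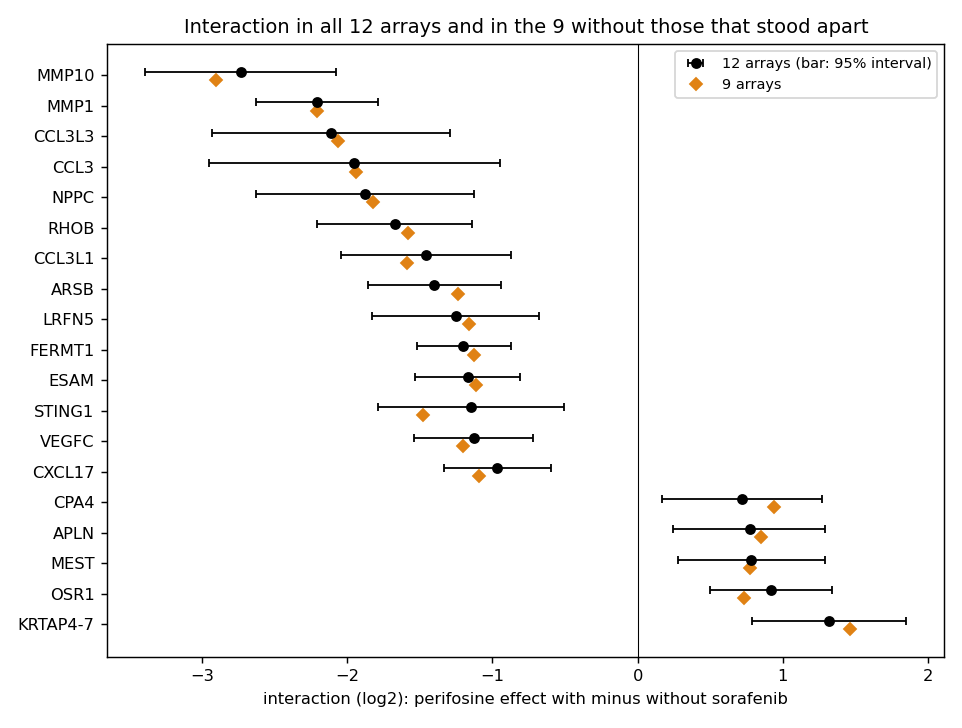
Interaction (log2, perifosine effect with minus without sorafenib) of the 19 genes with the smallest interaction p or the largest changes with perifosine alone; black dots and bars are the estimates and 95% intervals over all 12 arrays, orange diamonds the estimates over the 9 arrays left without combination A, sorafenib B and control C. Every diamond lies within its gene's interval, and the 14 negative and 5 positive interactions keep their sign.

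With sorafenib present, the genes with the smallest p for perifosine included some whose effect was of like size without it. THBS1, the matrix glycoprotein thrombospondin 1, read 2269, 1667 and 2051 in the combination arrays against 3965, 6668 and 3993 with sorafenib, and 2246, 2578 and 2640 with perifosine against 4163, 4979 and 5321 in controls. The arrays did not overlap in either setting, with effects of -1.26 with sorafenib and -0.95 without it, and neither effect was called (limma, adjusted p = 0.597 and 0.0932). Its interaction was -0.31 ± 0.28 (SE). SMOX, the spermine oxidase, had perifosine effects of 0.66 with sorafenib and 0.33 without it, and ID2, an inhibitor of basic helix-loop-helix factors, 0.77 and 0.33.

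A loose form of AP-1 letters, TGANTCA with any middle base, was looked for in promoters of genes called for perifosine without sorafenib. The reason was that the metalloproteinase genes that carry the interaction are textbook AP-1 targets. The windows are the 250 bases before each gene's start in RefSeq on GRCh38.p14; 27 of the 38 genes that rose and 14 of the 18 that fell had one. MMP1 and FERMT1 were not searched here. The letters TGANTCA, on either strand, were in 2 of the 27 and in 1 of the 14, and in 6.6% of all 27305 promoters of that length. The 3 windows follow, read 5′ to 3′ on the strand of the gene, with the match in capitals:
MMP10: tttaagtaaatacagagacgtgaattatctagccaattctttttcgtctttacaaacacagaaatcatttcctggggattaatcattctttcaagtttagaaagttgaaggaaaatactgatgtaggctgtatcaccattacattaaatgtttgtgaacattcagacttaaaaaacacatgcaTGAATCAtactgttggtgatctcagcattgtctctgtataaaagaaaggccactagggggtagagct
ARRDC2: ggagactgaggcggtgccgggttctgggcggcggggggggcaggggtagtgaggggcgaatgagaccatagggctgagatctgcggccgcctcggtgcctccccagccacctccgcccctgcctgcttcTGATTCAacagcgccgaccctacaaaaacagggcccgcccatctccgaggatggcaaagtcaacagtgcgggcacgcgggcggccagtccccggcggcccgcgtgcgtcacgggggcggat
CPA4: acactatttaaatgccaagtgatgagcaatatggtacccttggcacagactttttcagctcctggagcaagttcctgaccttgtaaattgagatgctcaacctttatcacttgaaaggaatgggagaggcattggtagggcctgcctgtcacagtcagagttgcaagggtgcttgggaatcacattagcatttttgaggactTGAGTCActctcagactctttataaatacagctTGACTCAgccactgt

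The MMP10 window is chr11:102780629-102780878 on the minus strand, with the match 67 to 61 bases before the start. The ARRDC2 window is chr19:18000874-18001123 on the plus strand, with the match at 121 to 115 bases. The CPA4 window is chr7:130292911-130293160 on the plus strand, with matches at 48 to 42 and at 15 to 9 bases. ARRDC2, an arrestin-domain adaptor, read 899, 937 and 745 in the combination arrays against 821, 780 and 835 with sorafenib, and 1490, 1568 and 1339 with perifosine against 867, 889 and 980 in controls, with an interaction of -0.61 ± 0.16 (SE; limma, adjusted p = 0.734). The windows with a match thus belong to genes whose perifosine effects had opposite signs. The matches were TGAATCA in MMP10 and TGATTCA in ARRDC2, which rose, and TGAGTCA and TGACTCA in CPA4, which fell. In the strict form of the AP-1 letters the middle base is C or G, and only the CPA4 window held it. The letters TGACGTCA (1.77% of all promoters) were in none of these windows, AGGATG (12.3%) was in 2 of the 27 and 0 of the 14, and GTAAACA (2.98%) in 1 of each; these were likewise searched on both strands.

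Lists of genes for the pathways of both drugs were then set beside the background of all genes, whose median interaction was 0.00. No member of any list apart from MMP1 and MMP10 was called in the interaction. The lists are therefore described by their medians and by their counts at an unadjusted p under 0.05 in limma. Of all genes, 2.58% passed that threshold on the positive side and 2.3% on the negative side.

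The list of metalloproteinases and their TIMP inhibitors, enzymes and regulators of matrix breakdown, had a median interaction of -0.13 over 22 genes, 17 of them negative. Apart from MMP1 and MMP10, 2 more genes passed the unadjusted threshold on the negative side, against a background of 2.3%. MMP14, a membrane-bound collagenase, had perifosine effects of 0.06 with sorafenib and 0.90 without it and an interaction of -0.84 ± 0.27 (SE; limma, adjusted p = 0.920). MMP16, another membrane-type enzyme, had an interaction of -0.54, and its other, dimmer probe one of 0.15. MMP9, the gelatinase B, was the 1 gene past the threshold on the positive side, at 0.36.

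Of 16 measured CC chemokine genes, the 3 that passed the unadjusted threshold were CCL3 and its copies, all negative, against a background of 2.3%. Their probes may not tell the copies apart, so these 3 may be 1 signal, and no other CC chemokine passed. The list's median was -0.20. Among 19 CXC chemokine and IL6-type cytokine genes the median was -0.04, with 7 positive and 12 negative. On each side 1 gene passed the unadjusted threshold, against backgrounds of 2.58% (positive) and 2.3% (negative). IL6, an inflammatory cytokine, read 1126, 1137 and 808 in the combination arrays against 1102, 646 and 825 with sorafenib, and 2548, 2945 and 1730 with perifosine against 1171, 1191 and 686 in controls. All 3 perifosine arrays were above the 9 others, with effects of 0.27 with sorafenib and 1.25 without it and an interaction of -0.98 ± 0.39 (SE; limma, adjusted p = 0.960). CXCL8, the neutrophil chemokine interleukin 8, had effects of 0.22 and 0.80.

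Among 23 measured targets of NF-kB, the transcription factor of inflammatory signalling, the median was -0.07. On the negative side 3 genes passed, against a background of 2.3%. The most extreme was PTGS2, which encodes the prostaglandin-forming enzyme COX-2. It read 4544, 3190 and 3463 in the combination arrays against 2662, 5670 and 3770 with sorafenib, and 19658, 23478 and 22103 with perifosine against 7784, 9520 and 11732 in controls. Perifosine effects of -0.06 with sorafenib and 1.18 without it gave an interaction of -1.24 ± 0.35 (SE; limma, adjusted p = 0.837). TRAF1 had effects of 0.17 and 0.85.

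The ERK output genes, which record the activity of the kinase that RAF controls, had a median interaction of -0.09 over 23 genes, 16 of them negative. DUSP6, a feedback phosphatase of ERK, was the 1 gene past the unadjusted threshold, at -0.64 ± 0.22 (SE; limma, adjusted p = 0.950). It read 3620, 2822 and 3016 in the combination arrays against 2260, 3267 and 2549 with sorafenib, and 8138, 7490 and 7232 with perifosine against 4329, 3489 and 4683 in controls. Over the 9 arrays the list's median was -0.17 and 5 genes passed, all negative, against a background of 4.02% in that direction. That count was not particular to the ERK list. In the 9 arrays 5 genes also passed on the negative side among 22 metalloproteinase and TIMP genes and among 22 FOXO targets. The same held among 33 ATF4 targets and among 26 interferon and STING genes. The 10 AP-1 subunit genes had a median of -0.18, with FOSB at -0.76 the 1 gene past the threshold. For the count of 1 on either list in the 12 arrays, the background on the negative side was 2.3%.

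Cholesterol synthesis and uptake genes, the targets of the sterol-sensing SREBP factors, had perifosine effects whose medians differed in sign between the 2 settings. Of 19 measured genes, 13 had a negative effect with sorafenib and 18 a positive effect without it, and the list's medians were -0.26 and 0.32. No gene of the list was called in either setting. With sorafenib 1 of the 19 passed even an unadjusted p of 0.05, against 3.41% of all genes, so a fall with sorafenib was not shown. The interaction was negative for 17 of 19 genes with a median of -0.55, and 7 passed an unadjusted p under 0.05, all negative, against a background of 2.3% in that direction. Over the 9 arrays the median interaction was again -0.55 and 11 genes passed, against a background of 4.02%, but the list's median effects were -0.12 with sorafenib and 0.43 without it.

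HMGCS1, the synthase at the entry of the mevalonate pathway, read 4610, 3791 and 4275 in the combination arrays against 4393, 8418 and 5396 with sorafenib, and 5706, 5930 and 5635 with perifosine against 3205, 3036 and 5298 in controls. Sorafenib B and control C, both among the arrays that stood apart, were the highest of their groups. The interaction was -1.10 ± 0.34 (SE; limma, adjusted p = 0.904) in 12 arrays and -1.16 in 9. DHCR7, the last enzyme of cholesterol synthesis, read 5213, 5847 and 7963 in the combination arrays against 7923, 7701 and 9472 with sorafenib, and 6733, 8764 and 9450 with perifosine against 5319, 5366 and 6947 in controls.

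The interaction of DHCR7 was -0.91 ± 0.26 (SE; limma, adjusted p = 0.838). The lanosterol demethylase gene CYP51A1 had effects of -0.34 with sorafenib and 0.54 without it, and MSMO1, a sterol oxidase of the same branch, -0.33 and 0.53. IDI1, which interconverts the isoprenoid building blocks, had -0.10 and 0.64, and INSIG1, the sterol-regulated brake on SREBP, -0.47 and 0.23. HSD17B7, an enzyme of the same pathway, had -0.35 and 0.32, and over the 9 arrays its interaction was -0.23 instead of -0.67. Sorafenib alone had a median effect of 0.25 on the list, and on top of perifosine of -0.23.

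Replication genes and those of the entry into S phase had interactions of the opposite sign. Without sorafenib all 34 measured genes had a negative perifosine effect with a median of -0.44, and CDT1, E2F2 and UNG fell (limma, adjusted p = 0.0396, 0.0210 and 0.0310). With sorafenib 17 were positive and 17 negative, with a median of -0.01. In that setting 0 of the 34 passed an unadjusted p of 0.05 in limma, a count near the 3.41% of all genes. The interaction was positive for 31 of 34 genes with a median of 0.41, and 14 passed an unadjusted p under 0.05, all positive, against a background of 2.58%; over the 9 arrays the median was 0.31 and 12 passed, against 3.64%.

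PCNA, the sliding clamp of DNA polymerases, read 14796, 13182 and 14715 in the combination arrays against 10552, 11355 and 13273 with sorafenib, and 12407, 13534 and 13397 with perifosine against 17649, 18882 and 24063 in controls. The control arrays were above all 9 others. Its effects were 0.28 with sorafenib and -0.61 without it, and the interaction was 0.90 ± 0.19 (SE; limma, adjusted p = 0.395). CDT1, which loads the replicative helicase, read 4670, 3518 and 3912 in the combination arrays against 3932, 4269 and 3251 with sorafenib, and 4130, 3857 and 3751 with perifosine against 6543, 6249 and 6813 in controls. Again the controls stood alone, with an interaction of 0.82 ± 0.18 (SE; limma, adjusted p = 0.479).

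The helicase component gene GINS2 had effects of 0.26 with sorafenib and -0.60 without it, and FEN1, the nuclease that trims Okazaki fragments, 0.06 and -0.64. The clamp loader subunits RFC2 and RFC4 had 0.17 and 0.28 with sorafenib, against -0.45 and -0.40 without it. Sorafenib alone had a median effect of -0.31 on the list, and on top of perifosine of 0.11.

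**Figure D4:**
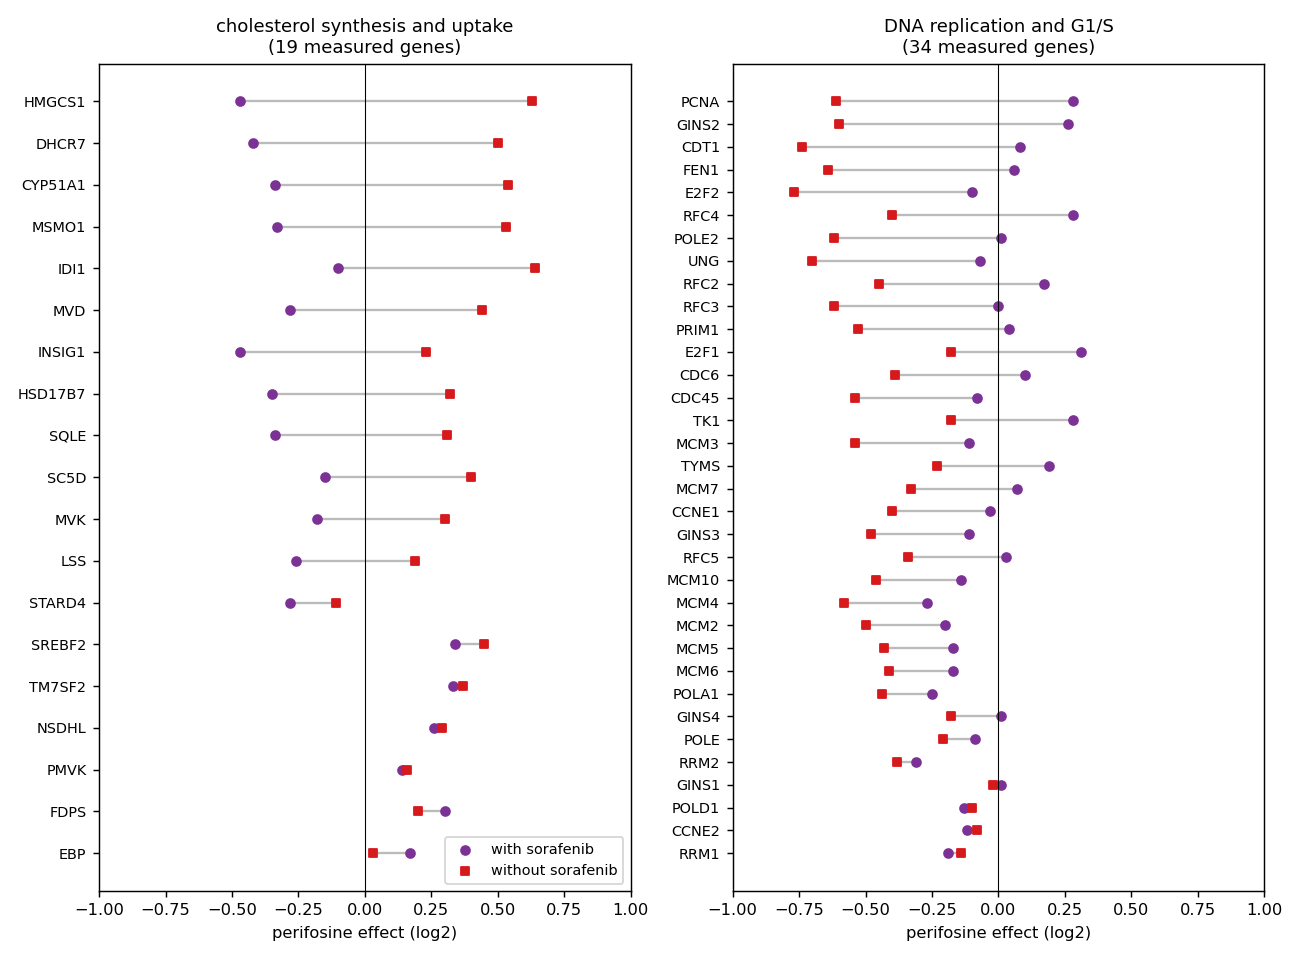
Perifosine effect (log2) of each of the 19 measured cholesterol genes (left) and the 34 measured DNA replication genes (right); purple dots are effects with sorafenib, red squares effects without it, and genes are ordered by the size of the interaction. On the left 17 of 19 dots lie left of their square, and on the right 31 of 34 dots lie right of it.

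The 30 mitosis genes, which act in the spindle and chromosome segregation, had a smaller shift in the same direction, with medians of -0.02 with sorafenib and -0.22 without it and a median interaction of 0.16. Of them, 23 were positive and 5 passed the unadjusted threshold, all positive, against a background of 2.58%. CDC20, an activator of the anaphase-promoting complex, read 46633, 42197 and 46008 in the combination arrays against 35511, 31627 and 34345 with sorafenib, and 44511, 38419 and 37921 with perifosine against 50973, 43719 and 51344 in controls. Its effect was 0.41 with sorafenib and -0.27 without it, and the interaction was 0.68 ± 0.15 (SE; limma, adjusted p = 0.479).

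Of 28 measured ribosome biogenesis genes, factors that process ribosomal RNA in the nucleolus, 25 had a positive interaction. The median was 0.25 in 12 arrays and 0.16 in 9, but 2 genes passed the unadjusted threshold, against a background of 2.58%. They were PES1 at 0.64 and PNO1 at 0.38. The list's median perifosine effect was 0.02 with sorafenib and -0.22 without it.

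The FOXO and ATF4 lists, nearer to the AKT side, had medians close to 0, but their counts did not set them apart from the ERK list. For 22 targets of FOXO, the transcription factors that AKT keeps out of the nucleus, the median interaction was 0.02, with 12 genes positive and 10 negative. At an unadjusted p under 0.05 in limma 2 genes passed on the negative side, against a background of 2.3%, and 0 on the positive side. Over the 9 arrays the median was 0.01 and 5 of the 22 passed, all negative, against 4.02%. The 10 negative genes include TSC22D3, a leucine zipper protein induced by FOXO factors and glucocorticoids, and BCL6. TSC22D3 had effects of 0.07 with sorafenib and 0.82 without it, and BCL6 -0.36 and 0.18. The 33 targets of ATF4, the factor of the amino acid and stress response, had a median of 0.05. Within that list SESN2, a sestrin that restrains mTORC1, had an interaction of -0.79 and STC2, a secreted glycoprotein, of 0.81. Each was the 1 gene past the unadjusted threshold on its side, a share near the background. Over the 9 arrays 5 of the 33 passed on the negative side, against 4.02%, and 2 on the positive side, against 3.64%.

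Phosphatidylcholine synthesis, the pathway that alkylphospholipids are known to disturb, had a median interaction of -0.01 over 15 genes. CHKA, the choline kinase at its start, fell with perifosine alone. It read 2129, 2266 and 2062 in the combination arrays against 2241, 2797 and 2198 with sorafenib, and 1773, 1714 and 1732 with perifosine against 2739, 2620 and 2651 in controls. Effects of -0.16 with sorafenib and -0.62 without it gave an interaction of 0.46 ± 0.15 (SE), with an adjusted p of 0.920 in limma. The other probes of CHKA, all dimmer, had interactions between -0.05 and 0.19.

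The remaining lists had medians of -0.19 for 20 p53 targets, -0.05 for 18 BCL2 family genes, -0.06 for 26 genes of the interferon response and STING pathway, -0.07 for 27 autophagy and lysosome genes and 0.07 for 30 genes of hypoxia and glycolysis. Of the p53 targets, 17 of 20 were negative and 1 passed the unadjusted threshold, SESN2, against a background of 2.3% on the negative side. The oxidative phosphorylation genes had a median of -0.04 and the metallothioneins, small zinc-binding proteins, of -0.64 with 0 of 11 past the threshold. Over the 9 arrays the metallothionein median was 0.01, and these are the genes by which the 3 arrays stood apart.

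Among the marker lists of other cell types the median interaction was -0.04 for T cells, -0.03 for B and plasma cells, 0.04 for monocytes and macrophages, 0.06 for epithelium and 0.15 for fibroblasts and stroma. DCN, the matrix proteoglycan decorin, was the fibroblast marker past the unadjusted threshold, at 0.63. The summed intensity of the fibroblast markers was 72595 to 87893 in the combination arrays, 73852 to 92851 with sorafenib, 33808 to 39566 with perifosine and 39832 to 47008 in controls. It was thus higher in all sorafenib-treated arrays, and whether it bears on the interaction was not tested.

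**Figure D5:**
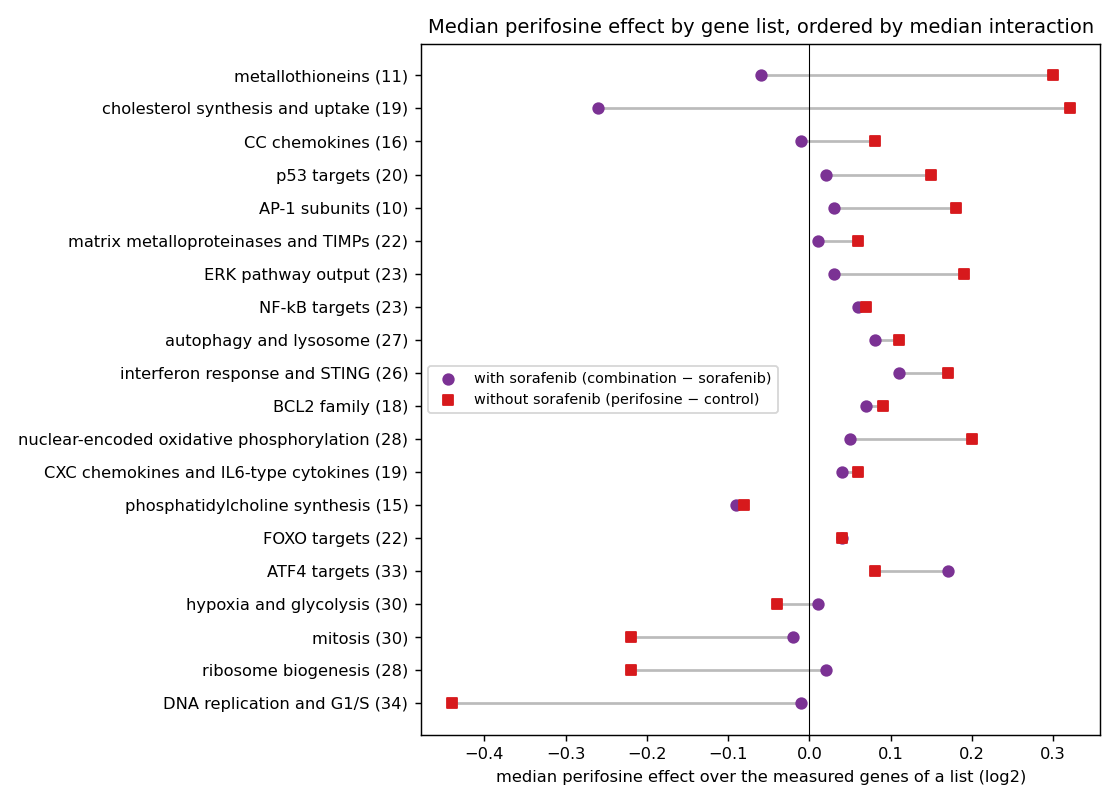
Median perifosine effect (log2) over the measured genes of 20 lists, with the number of genes in parentheses; purple dots are medians with sorafenib, red squares medians without it, and lists are ordered by their median interaction. The cholesterol list (dot at -0.26, square at 0.32) and the DNA replication list (dot at -0.01, square at -0.44) have the widest gaps.

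The sorafenib effects, whose difference is the same interaction, were set beside each other in the same way. Limma called 414 genes (2.2%) for sorafenib on top of perifosine and 425 (2.25%) for sorafenib alone. Of these, 186 were shared, all in the same direction, which is 44.9% of the genes called with perifosine and 43.8% of those called without it. Across the 425 genes the effects with and without perifosine correlated with a Pearson r of 0.88, as a description over genes. The 250 rises of sorafenib alone (1.33%) had a median of 0.62 with perifosine and 0.78 without it, and the 175 falls (0.928%) -0.42 and -0.74. These counts depend on the arrays used. In the 9 arrays they were 1304 with perifosine (6.92%) and 876 without it (4.65%), and 460 genes were shared, 457 in the same direction, which is 35.3% and 52.5% of the called genes. When each array was left out, the count with perifosine ran from 215 to 1050. It was 1050 without sorafenib B and between 215 and 240 without combination A, combination C or any perifosine array. The count without perifosine ran from 111 to 570 and was between 111 and 177 without any 1 control array.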

How the data were processed

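Total RNA was labelled as biotinylated cRNA for 12 Illumina arrays (4 groups of 3), per the labels' protocols. The authors' deposited values are array intensities on a linear scale, processed with BeadStudio per the submitters' processing notes; the sorted values of the 12 arrays differed by at most 2.35%, as after quantile normalization, and no background had been subtracted. A further deposited table without normalization has 12 columns whose names match no sample, and it was not used. Groups came from the sample titles. Of 48803 probes, 28098 had 1 gene symbol, 13 several and 20692 none in the platform annotation; for the 6132 genes with several probes the brightest by mean log2 was used, which left 18852 genes and no filter on dim ones. Entrez identifiers of 28059 probes were matched to RefSeq names.

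Log2 intensities were fitted with limma 3.58.1 in R 4.3.3 as 4 group means (8 residual and 3.52 prior degrees of freedom), with Benjamini-Hochberg adjustment within each contrast and a call at an adjusted p under 0.05. The 9-array fit left out combination A, sorafenib B and control C. No counts underlie arrays, so their number limits the precision. The script was tested on simulated data.

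Members, lists (26, of which 518 of 547 entries were measured) and tests were chosen with earlier results of these data known. Named genes are those called or among the 10 smallest p in the interaction, the 10 largest rises and 5 largest falls called for perifosine alone, up to 3 members of each list with the largest interaction and a mean log2 of at least 9, and others picked after their values were seen. Alternatives were other probe rules, normexp background correction (offset 50), further normalization, a filter on dim genes, other variance models, array weights, a replicate block, linear intensities and leaving out arrays.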

Additional observations from a re-analysis of the deposited data

Results flagged for a closer look

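The perifosine effect differed between cells with and without sorafenib by the test of the interaction itself for 3 of 18852 genes. For MMP1 the difference between the effects with and without sorafenib was -2.21 on the log2 scale (limma, adjusted p = 0.00218), for MMP10 -2.73 (adjusted p = 0.0127) and for FERMT1 -1.2 (adjusted p = 0.0281). In all 3 genes the 3 perifosine arrays were above the other 9 arrays.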

How the results depend on the processing

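MMP1 stayed called under all 22 alternatives that gave it a value (adjusted p 0.000478 to 0.0181 in limma; it fell below the filter on dim genes), MMP10 under 19 of 23 and FERMT1 under 8 of 23. The count of called interactions, 3, was 2 or 3 under most settings, 1 among genes with a mean log2 of at least 9, 15 with array weights (14 negative, KRTAP4-7 positive) and 6 on linear intensities, and ran from 1 to 4 when each array was left out; it was 1 without control C, perifosine A, perifosine C or combination B. Perifosine with sorafenib gave 0 calls under every alternative run. The 56 calls without sorafenib became 29 after normexp correction, 34 with an intensity trend and robust prior, 349 with array weights, 37 with the replicate block and 293 without the 3 arrays that stand apart, and ran from 11 to 155 when each array was left out, with 155 without sorafenib B. Same-letter deviations correlated between -0.67 and 0.62, over 0.1 in 7 of 18 pairs. The arrays that stand apart carry different letters (combination A, sorafenib B, control C). These correlations therefore cannot tell whether shared letters pair the arrays. With the replicate block 2 interactions were called. Of the named genes' interactions, 5 changed sign: CPA4 on linear intensities (-32.5 intensity units), FOSL1 without sorafenib A (0.00; -0.78 to 0.00 over the arrays left out), MRTO4 without sorafenib B (-0.01; -0.01 to 0.69), RRM2B without sorafenib B (0.04; -0.70 to 0.04) and SDC1 without the 3 arrays (0.02). The cause of these changes was not tested. Among the genes with the 10 smallest p only ARSB had other probes, which had the same sign in 3 of 3 cases. MMP1, MMP10 and FERMT1 thus rest on 1 probe each. The other probes of all named genes had the same sign in 39 of 49 cases. Differences are understated close to background, and 49.1% of genes had a mean log2 under 9.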
